A study of Homo sapiens with 2 samples.

Results

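DHRS2 (dehydrogenase/reductase SDR family member 2) is 1 of the 3379 gene symbols in the listed rows used here. Of the 58921 probes of the array, 2 carry this symbol in those rows. Probes outside those rows have no name here, and some may also read DHRS2. The gene was chosen by its difference between LBH589-treated and DMSO-treated cells, one of the largest on the array, so these values describe the gene and were not tested. The probes were found by symbol in the study's lists of differently expressed mRNAs and joined by probe name to the scanner output of both arrays. SK-NEP-1 cells, a human kidney line labelled as Wilms tumor and since described by others as a Ewing sarcoma-type line, were treated with 100 nM LBH589 or with the same volume of DMSO for 24 h. The RNA of each treatment was read on 1 Arraystar Human LncRNA array with 1 dye (Cy3), so there was no replicate array of either condition. The paper also measured DHRS2, among other genes, by quantitative RT-PCR in LBH589-treated SK-NEP-1 cells. It describes those results as matching its array data, and they were not used here. The control array is headed Blank in the labels and its treatment is given there as DMSO. LBH589, also named panobinostat, blocks histone deacetylases, which take acetyl groups off histones and other proteins.

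The short-chain dehydrogenases/reductases (SDR) are a large family of enzymes that use NAD or NADP to oxidize alcohols or reduce carbonyl groups of steroids, retinoids, prostaglandins, sugars and foreign compounds. DHRS2, also called HEP27, reduces dicarbonyl compounds with NADPH, and the protein has been reported to bind MDM2, a ubiquitin ligase. The gene was first described in hepatoma cells that had stopped dividing after butyrate, itself an inhibitor of histone deacetylases.

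The pair of DHRS2 probes is shown because the probes share their 3′ bases and differ only at their 5′ ends, in the bases given in capitals. The probes were designed against RefSeq transcripts NM_182908 (isoform 1, an RNA of 1709 bases) and NM_005794 (isoform 2, 1692 bases), both placed on the plus strand at chr14:24105573-24114848 (hg19). Each is 60 bases long with a GC content of 43.3%.
DHRS2, NM_182908: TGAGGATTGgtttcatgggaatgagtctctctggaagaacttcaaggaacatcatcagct
DHRS2, NM_005794: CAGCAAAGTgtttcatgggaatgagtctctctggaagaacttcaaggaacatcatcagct
The probes shared 51 bases at the 3′ end and differed over the 9 bases at the 5′ end. How far each also binds the transcript of the other was not tested, so they are not independent readings of separate isoforms. The longest run of bases that a DHRS2 probe shared with any other of 3954 listed probes was 14, and with the probe of the neighbouring family member DHRS4 it was 6. These runs compare probes with probes and not with whole transcripts, so binding of the DHRS2 probes to other RNAs was not tested. The probes of DHRS4 and of DHRS4-AS1, its natural antisense RNA, are shown for comparison because they are the nearest listed RNAs.
DHRS4, NM_021004: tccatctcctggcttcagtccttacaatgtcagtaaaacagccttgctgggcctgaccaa
DHRS4-AS1, NR_023924: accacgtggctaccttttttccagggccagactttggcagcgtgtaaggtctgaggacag
The DHRS4 probe was also listed for transcripts of DHRS4L2, a closely similar gene, so its signal cannot be given to DHRS4 alone.

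The RefSeq promoter window of DHRS2, 250 bases before and 50 after the start, lies on the plus strand at chr14:23629865-23630164 of GRCh38.p14 and is shown for its base composition. The gene spans 15525 bases in that annotation and 9276 bases for the listed transcripts on hg19. Set against the DHRS4 start in each build, the added length lies on the 5′ side, so the window is upstream of the listed start. Its features are those of the annotated gene start, and whether the measured RNAs begin there was not tested.
DHRS2 promoter: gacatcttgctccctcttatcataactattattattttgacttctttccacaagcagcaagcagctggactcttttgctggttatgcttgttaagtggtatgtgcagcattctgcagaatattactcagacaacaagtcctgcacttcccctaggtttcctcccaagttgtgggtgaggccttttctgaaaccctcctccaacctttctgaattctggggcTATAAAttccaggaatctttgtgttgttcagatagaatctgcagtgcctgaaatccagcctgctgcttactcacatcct
Capitals mark TATAAA, the core of a TATA box, whose first base lies at position -29 from the start (the start being 1). It was the only match on either strand, and 11.5% of the 35116 RefSeq windows of the same length held the motif on either strand. The DHRS2 window had a GC content of 44.0% and held 0 CpG dinucleotides. The median window held 14, and 3.96% of windows held no more than that of DHRS2. The letters GGGCGG, the core of a GC box, were not in the DHRS2 window on either strand and were in 45.0% of all windows. The window of DHRS4 held 20 CpG dinucleotides and GGGCGG, with a GC content of 68.7%. Among the listed neighbours within 1 Mb that had a window in the table, each window of AJUBA, DHRS4-AS1, IRF9, NFATC4, PCK2 and PSMB5 held at least 3 CpG dinucleotides and none held TATAAA. TM9SF1 was not in the table.

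The DHRS2 signal was just under the 75th percentile of the array in DMSO-treated cells and far above it in LBH589-treated cells. The probe of NM_182908 had a processed signal of 154 on the DMSO array and of 38570 on the LBH589 array. The probe of NM_005794 had a processed signal of 176 on the DMSO array and of 33652 on the LBH589 array. The processed signal is the brightness of a spot after Feature Extraction, the scanner software, has subtracted the background within that array. Both probes were above the limit for being well above background on each array, and their DMSO signals were 7.25 and 8.27 times the lowest signal so classed there, which was 21.3. No DHRS2 spot was flagged or saturated. The local background around the spots was 34 and 35 on the DMSO array and 31 and 30 on the LBH589 array. Each probe had 1 spot per array. Feature Extraction gave an error of 10.4% and 10.3% of the signal for the DMSO spots of NM_182908 and NM_005794, and of 10% for both LBH589 spots.

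**Figure D1:**
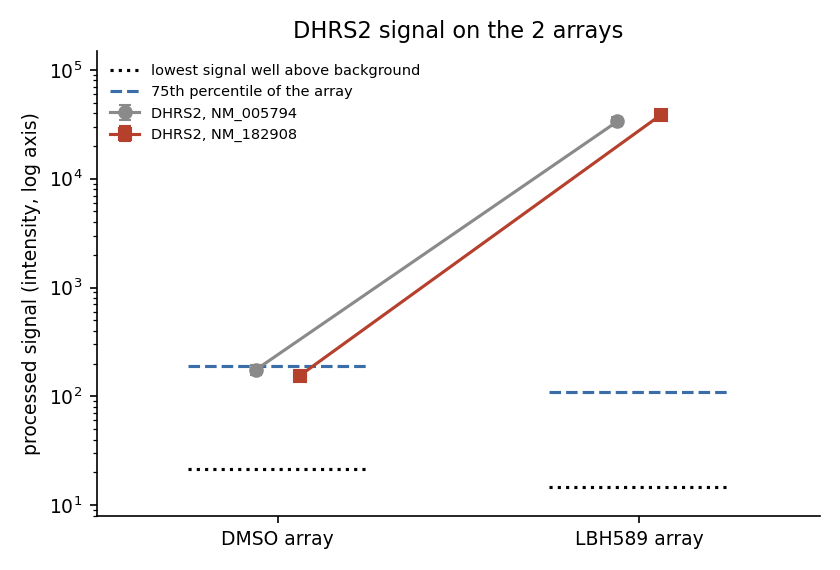
Processed signal (intensity, log axis) of the 2 DHRS2 probes on the DMSO array and the LBH589 array, with the Feature Extraction error as bars that are mostly smaller than the symbols. Dotted lines are the lowest signal well above background (21.3 and 14.5) and dashed lines the 75th percentile of each array (189 and 108). Both probes lie just under the dashed line in DMSO and far above it in LBH589.

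To compare the arrays, levels were expressed as the log2 processed signal minus the 75th percentile of that array, which was a signal of 189 for DMSO and 108 for LBH589. On this scale the level of the NM_182908 probe was -0.29 in DMSO and 8.47 in LBH589. Its difference, LBH589 minus DMSO, was 8.76 ± 0.21 (spot error, 1 array per condition), which is 435-fold higher in LBH589. The level of the NM_005794 probe was -0.10 in DMSO and 8.28 in LBH589. Its difference was 8.38 ± 0.21, which is 332-fold higher. Both DHRS2 probes were over 5-fold higher, as were 2.49% of the 41574 probes that cleared the background limit on 1 array or more, and nothing is read from this share because the same contrast chose the gene. The errors leave out the variation between cultures, and culture, RNA preparation and labelling cannot be told apart from the treatment. Both arrays lay on 1 slide and in 1 scan. Across 19 probes that were printed on up to 10 spots, the SD of the log2 signal between spots of an array was between 0.03 and 0.24, with a median of 0.07.

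The difference of the NM_182908 probe was larger than that of the NM_005794 probe by 0.39 on the log2 scale, a ratio of 1.31 between their fold changes. The combined error of the 4 spots was 0.29, and the 95% interval from spot error alone ran from -0.19 to 0.96. That interval includes 0, but it rests on the error that Feature Extraction gives. The median of that error over probes well above background was 0.15 (DMSO) and 0.16 (LBH589) in log2 units. Repeated spots had a smaller median SD, 0.07, so a difference between the probes is neither claimed nor excluded. The value kept its sign under each of the other ways of processing tried, with values between 0.35 and 0.45. A shift of a whole array cannot change it.

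Among the 1199 listed mRNA probes measured on both arrays, meaning clear of the background limit on each, the DHRS2 probes ranked first and second by their difference. The rows used here are a part of the study's mRNA lists (1002 of 3162 and 952 of 3426), so mRNAs outside them are not ranked. The next were STMN2, a microtubule regulator of neurons, with 6.51 ± 0.21, and SPANXA2, a testis-specific nuclear protein, with 6.47 ± 0.24. RPRML, a relative of the cell cycle arrest protein reprimo, followed with 5.93 ± 0.31. PGA3, a pepsinogen, differed by 5.72 ± 0.22 and ACTL6B, a subunit of the neuronal BAF chromatin remodelling complex, by 5.56 ± 0.22. Within these rows the gap between the NM_182908 probe and STMN2 was 2.25 on the log2 scale, or 4.76-fold. It describes the choice of DHRS2 and was not tested. These 5 genes were named by the nearness of their difference to that of DHRS2 over the 2 arrays.

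Over all 34618 probes measured on both arrays, the DHRS2 probes ranked 3 and 4. The larger differences were those of the long noncoding RNAs RP11-325I22.2, with 11.59, and XLOC_000027, with 11.48. The median of all these probes was -0.04 and the highest 0.1% began at 5.13. Differences of more than 8 were seen at 6 probes, and of more than 6 at 17 probes. The label of strongest mRNA therefore holds for mRNA probes in the list rows used here that were measured on both arrays. Probes without a name here may also read mRNAs.

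**Figure D2:**
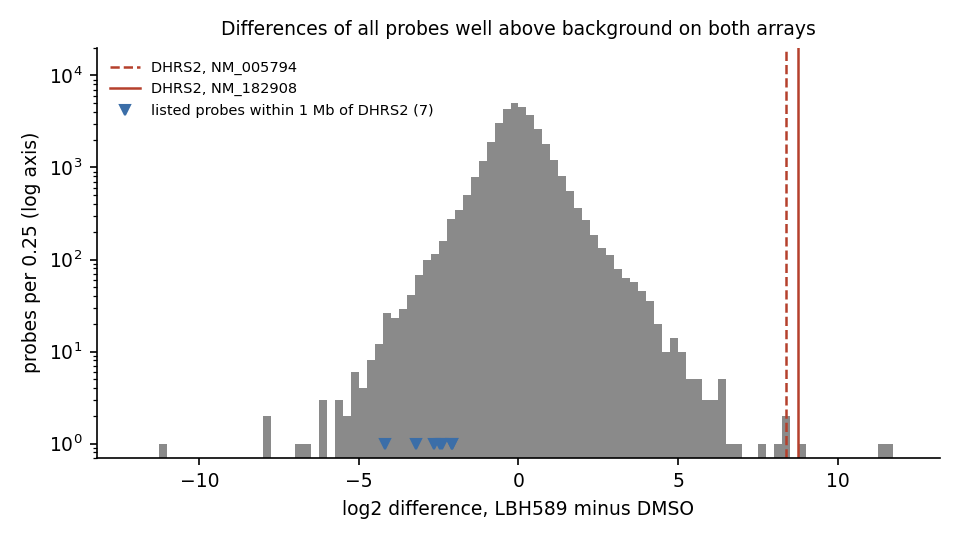
Histogram of the log2 difference, LBH589 minus DMSO, for the 34618 probes measured on both arrays, with the number of probes per bin of 0.25 on a log axis. Red lines mark the 2 DHRS2 probes at 8.38 and 8.76, and triangles mark the 7 listed probes within 1 Mb of DHRS2 that were measured on both arrays, all below 0.

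The label depends on how dim probes are handled. RPRM (reprimo), IRGM, an immunity-related GTPase, and RFPL4A, a ret finger protein-like gene, were bright in LBH589 but not well above background in DMSO. For such a probe the dim level is only bounded. Its own signal or, where larger, the smallest signal on that array that cleared the background limit was taken in its place. Folds given as at least a value rest on this level. Spot error was not taken off them, so they are not strict minima. RPRM had signals of 5.44 in DMSO and 1716 in LBH589 and was at least 140-fold higher. IRGM had signals of 4.25 and 1178 and was at least 96.2-fold higher. RFPL4A had signals of 9.34 and 2295 and was at least 187-fold higher. These bounds lie below the fold changes of both DHRS2 probes. With the dim signals taken at face value instead, the differences were 9.10 for RPRM, 8.91 for IRGM and 8.74 for RFPL4A, so that RPRM and IRGM stood above DHRS2 at 8.76. The genes above DHRS2 at face value changed with the scaling. They were RPRM, IRGM and RFPL4A under quantile normalization, RPRM and RFPL4A in the deposited processed values, and 0 genes with normexp. The order of DHRS2 against these genes cannot be settled on the DMSO array.

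Within 1 Mb of DHRS2 on either side (hg19), 8 other listed probes of 8 genes were found, and all were lower in LBH589. The direction of a listed probe is fixed by whether the study lists it as up or down regulated, and a probe is listed only because it changed, so both the direction and the size describe the lists. Over all chromosomes, 936 of 1943 listed mRNA probes and 828 of 1991 listed lncRNA probes were lower. The median difference of the 8 probes was -2.43, and the range was from -4.18 to -1.40. All 8 were at least 2-fold lower and 5 were at least 5-fold lower. Of the 41574 probes counted, 10.2% were 2-fold and 1.65% were 5-fold lower, with a median of -0.01, but most of these probes are not listed and nothing is read from the comparison. Of the 123 other listed probes on chromosome 14, 71 were higher, 48 were lower and 4 gave no difference because the bound went past the bright level.

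The nearest listed RNAs on the downstream side were those of DHRS4. DHRS4-AS1, read 293 kb away at chr14:24407940-24423392 on the minus strand, had signals of 66.5 in DMSO and 11.6 in LBH589, where it was not well above background. It was at least 2.63-fold lower. DHRS4, an NADPH-dependent retinal and carbonyl reductase, is read 308 kb away at chr14:24422965-24438488 on the plus strand, and its start overlaps the antisense gene. Its probe had signals of 1193 in DMSO and 129 in LBH589, a difference of -2.41 ± 0.21. DHRS2 and this related gene thus stood on opposite sides of 0. DHRS2 was chosen for its rise and DHRS4 was seen because the study lists it as down regulated, so nothing is read from the gap.

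Beyond DHRS4 lay PCK2, the mitochondrial phosphoenolpyruvate carboxykinase, at 449 kb, where signals of 705 and 96.3 gave a difference of -2.07 ± 0.21. IRF9, the DNA-binding partner of STAT proteins in the interferon response, lay at 516 kb and had the lowest difference of the 8, with signals of 3455 and 110 and a value of -4.18 ± 0.21. TM9SF1, a transmembrane protein of the endosomal system, lay at 544 kb with -2.45 ± 0.21. NFATC4, a calcineurin-dependent transcription factor, lay at 722 kb with -2.07 ± 0.24. On the upstream side, PSMB5, a catalytic subunit of the proteasome, differed by -2.65 ± 0.21 at 601 kb. AJUBA, a LIM domain scaffold of cell junctions, differed by -3.20 ± 0.23 at 659 kb. The nearest listed probes that were higher lay outside the window. STXBP6, a SNARE-binding protein, was 1.17 Mb downstream and at least 5.64-fold higher. A long noncoding RNA listed under RAB2B was 2.16 Mb upstream and at least 5.22-fold higher. Probes without a listed name in this region were not analysed here, so genes that changed less are missing from this account.

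**Figure D3:**
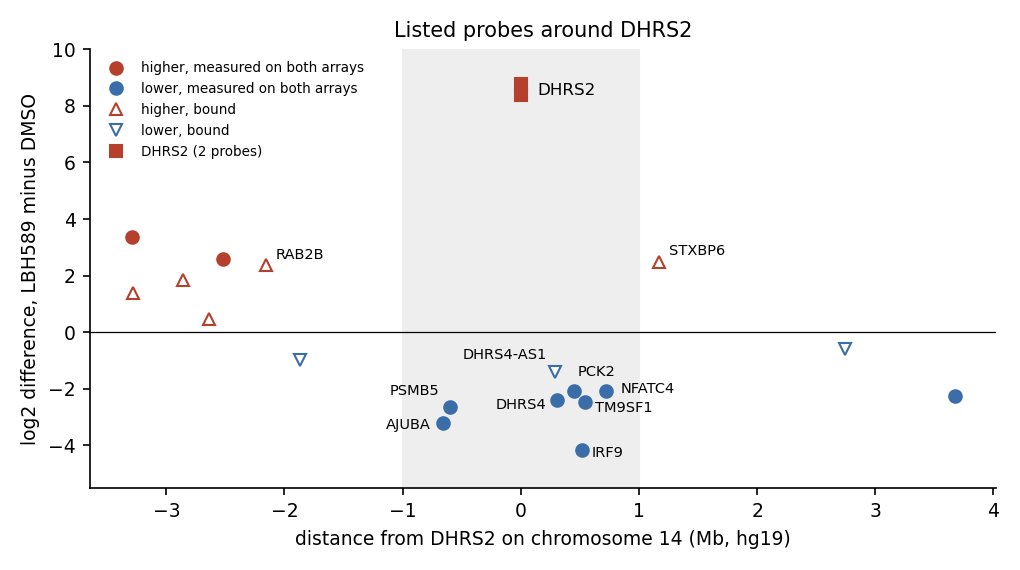
Log2 difference, LBH589 minus DMSO, of listed probes against their distance from DHRS2 on chromosome 14 (Mb, hg19), up to 4 Mb away, with the window of 1 Mb shaded. Filled circles were measured on both arrays and open triangles are bounds. DHRS2 (squares, 8.38 and 8.76) stands alone above 0 in the shaded window, where the 8 other listed probes lie between -4.18 and -1.40.

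Of 71 genes of the SDR family other than DHRS2 that were looked for, 10 had a listed mRNA probe, with 11 probes in all. At 2-fold, 3 of them were higher and 7 lower in LBH589, beside 12.3% and 10.2% of the 41574 probes counted. At 5-fold the counts were 3 and 6, beside 2.49% and 1.65% of all probes. The 11 probes were seen only because the study lists them as changed, so their counts are no result about the family. The median of the 11 probes was -2.41 and the range was from -4.37 to 3.37. DHRS2 was chosen for the size of its difference, so nothing is read from its place above these probes. Their directions are again those of the lists, in which 995 of 1943 mRNA probes were higher and 936 lower.

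The family members that were higher in LBH589 had signals between 17.2 and 22.6 in DMSO. HPGD, the dehydrogenase that inactivates prostaglandins, was read by a pair of probes that shared 50 bases at the 3′ end and differed in 10 bases at the 5′ end. The probe of NM_001145816 had signals of 22.6 and 96.1, a difference of 2.89 ± 0.34. The probe of ENST00000296522 was not well above background in DMSO, with signals of 17.2 and 127, and was at least 10.3-fold higher. RDH12, a retinol dehydrogenase known from photoreceptors, had signals of 20.4 and 103, was not well above background in DMSO, and was at least 8.43-fold higher.

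The members that were lower had signals of 338 or more in DMSO, except DHRS13. DHRS3, which reduces retinaldehyde to retinol, had signals of 3499 in DMSO and 97.0 in LBH589, a difference of -4.37 ± 0.21. HSD17B11, a lipid droplet enzyme acting on steroids, had 2170 and 93.7, a difference of -3.73 ± 0.21. DHRSX differed by -3.26 ± 0.25. KDSR, the ketodihydrosphingosine reductase of ceramide synthesis, had 6873 and 437, a difference of -3.18 ± 0.20. DECR1, the mitochondrial dienoyl-CoA reductase of fatty acid oxidation, differed by -2.32 ± 0.21. MAT2B, a regulatory subunit of methionine adenosyltransferase, was not well above background in LBH589. Its own signal there, 17.2, was larger than the lowest signal classed as well above background, 14.5. By its own signal MAT2B was 11.3-fold lower. DHRS13 had signals of 37.8 in DMSO and 4.05 in LBH589, the latter not well above background, with a bound of -0.58 on the log2 scale.

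Enzymes outside the SDR family that reduce carbonyl groups were looked for as well, and 3 of 24 genes had listed probes. NQO1, the quinone reductase, was read by 3 probes with differences of -3.21 ± 0.21, -3.08 ± 0.20 and -2.38 ± 0.20, all more than 5-fold lower. AKR1C3, an aldo-keto reductase acting on steroids and prostaglandins, had signals of 35.2 and 121, a difference of 2.58 ± 0.27. AKR1C2, a close relative of AKR1C3, had signals of 4.25 and 38.1, was not well above background in DMSO and was at least 3.11-fold higher. The DHRS2 probes lay above all 5 of these probes, as they lay above the 11 of the family, which follows from how the gene was chosen.

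**Figure D4:**
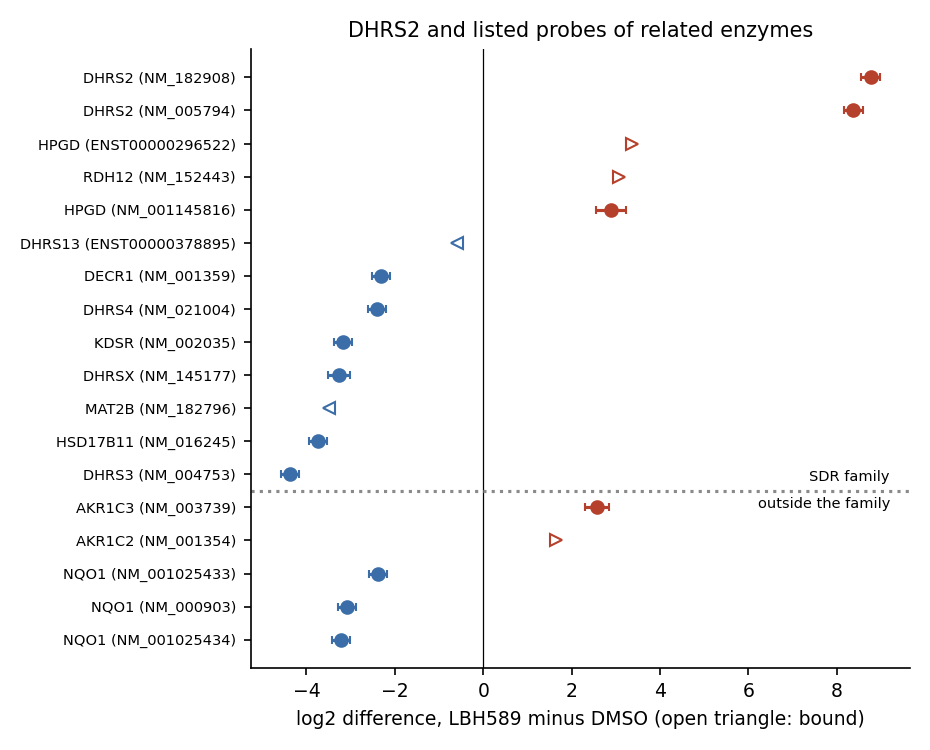
Log2 difference, LBH589 minus DMSO, of the DHRS2 probes, of the 11 listed probes of other SDR family genes and of the 5 listed probes of carbonyl-reducing enzymes outside the family. Circles with bars are differences with their spot error, and open triangles are bounds that point away from 0. The DHRS2 probes lie at 8.38 and 8.76, and the next highest is the HPGD bound at 3.37.

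The DHRS2 difference was recomputed under other scalings and background corrections. It ranged from 7.96 to 8.84 for the NM_182908 probe and from 7.58 to 8.46 for the NM_005794 probe. The lowest values came without any scaling, under which the median of all probes fell by 0.80 as well. The NM_182908 probe ranked first among the listed mRNA probes measured on both arrays under each scaling tried. A scaling that only shifts a whole array cannot change this rank.

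**Figure D5:**
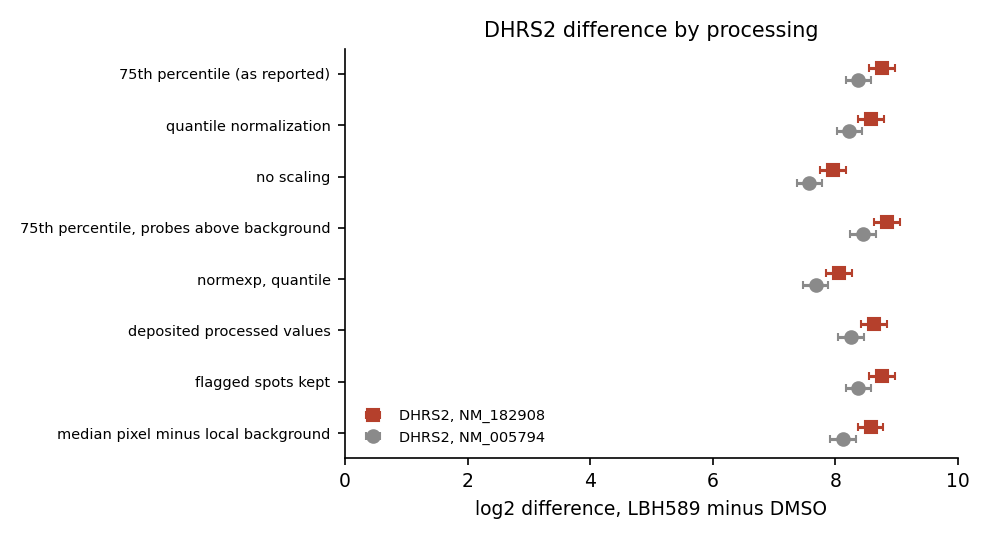
Log2 difference, LBH589 minus DMSO, of the 2 DHRS2 probes under each way of processing, with bars giving the spot error of the values as reported (0.21). Values range from 7.58 to 8.84.

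Markers of the line could be looked at only where the study lists them as changed. Of 12 Wilms tumor and nephron progenitor markers, the listed ones were MEOX1 and NCAM1, which were not well above background in DMSO and were at least 2.31-fold and 4.79-fold higher in LBH589. Of 10 Ewing sarcoma markers, the listed ones were PAX7, NKX2-2 and CCND1, which were well above background in DMSO and lower in LBH589, by differences of -3.93 ± 0.29 and -2.33 ± 0.20 for PAX7 and CCND1 and at least 11.5-fold for NKX2-2. The other markers had no listed probe and were not analysed here. A probe listed as lower needs signal in DMSO and one listed as higher can be dim there, so these levels do not bear on the identity of the line. Whether the DHRS2 values depend on the identity of the line was not tested.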

How the data were processed

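Gene expression in SK-NEP-1 cells was measured on 1 array per condition. For each array the authors deposited the Agilent Feature Extraction output (11.0.1.1 in the file headers, 10.7.3.1 in the submitters' processing notes), in which each spot has an intensity, its error and flags of another kind (0 or 1). The authors also deposited a table of 41891 probes in log2 units, with column medians of 6.27 (DMSO) and 6.26 (LBH589). Their between-array normalization is not given in the sources used here.

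From the deposited intensities, control probes and flagged spots were left out, log2 processed signals were averaged per probe, the 75th percentile of each array was subtracted, and LBH589 minus DMSO was taken. No pseudocount was used. Probes that cleared the software's background limit on 1 array or more were counted at 2-fold and 5-fold. No test was possible, and the number of arrays limits the precision. R 4.3.3 with limma 3.58.1 (normexp) and Python 3.11.15 were used, and the calculation was tested on simulated data.

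Gene names, hg19 positions and probe sequences came from the rows of the study's lists used here (1002 of 3162, 952 of 3426, 1406 of 3910 and 1363 of 4125), and other probes have no name here. Promoter windows are from RefSeq. The genes named are DHRS2, every listed gene within 1 Mb, listed members of the enzyme lists, the 5 listed mRNA genes nearest in difference, and any listed mRNA gene ranked above DHRS2 under another setting. The probes and lists were chosen with earlier results of these data known, and 1 further list is not reported here.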

Additional observations from a re-analysis of the deposited data

How the results depend on the processing

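Over 113 recomputed values, 93 stayed close to those reported, 20 moved and 0 changed sign. Only the log2 differences could change sign, as ranks and counts cannot. Some settings leave a value as it was by construction, so the tally is not a measure of robustness. Without scaling, the DHRS2 differences were 7.96 (NM_182908) and 7.58 (NM_005794), the median of the 8 neighbours was -3.23, 1 carbonyl reduction probe was 2-fold higher, and over all probes 1802 were 2-fold higher and 16249 lower, in place of 5094 and 4252. That split follows the shift of the median. With normexp and quantile normalization these values were 8.06, 7.68, -1.99, 1, 2499 and 2232. Median pixel signal minus local background, added after seeing the data, gave 8.13 for NM_005794. With flagged spots kept, the NM_182908 probe ranked 5 over all probes. With dim signals at face value it ranked 3 among listed mRNA probes and 9 over all. With counts limited to probes measured on both arrays, 1 SDR family probe and 1 carbonyl reduction probe were 2-fold higher. A neighbourhood of 0.5 Mb left 3 probes, all 2-fold lower, with a median of -2.07. The causes of the other moves were not tested. No paired analysis was possible because each condition had 1 array, and for the same reason no array could be left out. Signal over background limits the genes that were dim in DMSO, and DHRS2 was not among them.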
